A study of Mus musculus with 6 samples.

Results

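The 32 genes described here were chosen as markers of the nerve supply of the vessel. Of these, 26 are genes of autonomic neurons and of neurons in general. The other 6 are genes of Schwann cells and their precursors, the glia that ensheath peripheral axons. Which cells of the whole tissue made their RNA was not tested. The 32 genes were listed by name, and each was read through its highest-mean probe set with exactly 1 gene symbol. All 32 were measured among 19938 genes in all. None of the 32 had a second such probe set. The tissues were the ascending aorta, with 3 biological replicates, and the descending aorta, with 3. All came from wild-type embryos of the C57BL/6 strain at 13.5 days postcoitum that received no treatment, and the labels name no sorting or dissociation. No label ties an array to an embryo, a litter or a pool, so a p-value here reflects only how these samples vary, which may be technical.

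Sympathetic neurons arise from trunk neural crest that settles beside the dorsal aorta, and take on the noradrenergic phenotype through the Phox2 transcription factors, which switch on the enzymes of noradrenaline synthesis. Their axons later grow along arteries, guided by neurotrophins and by ligands of the GDNF family, which act through Ret and the GFRα co-receptors. Schwann cell precursors travel on peripheral axons, carry Sox10 and the neuregulin receptor ErbB3, and mature later into Schwann cells, only some of which make myelin. The study's question was about smooth muscle of different embryonic origin: that of the ascending segment derives largely from neural crest, that of the descending segment from mesoderm.

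Values are log2 expression after RMA, the authors' background subtraction, equalisation and summary of probes, and array medians lay between 7.14 and 7.22. All differences are ascending minus descending. Across all genes the array labelled ascending replicate 3 lay with the descending arrays: Pearson's r averaged 0.996 between it and the descending replicates, but 0.988 between it and ascending replicates 1 and 2 (across genes, which are not independent replicates). Differences that turn on that array are therefore given with and without it, and p-values without it are likely too small because it stands out by its values. Descending replicate 1 also stood apart in Xist, transcribed from the silenced X chromosome, with a value of 5.80 against 10.1 to 11.2 elsewhere. Of 5 smooth muscle genes, which mark the vessel wall, 2 had a higher and 3 a lower mean in ascending aorta, and 0 passed. Acta2, the actin of smooth muscle, ranged only from 13.63 to 13.77 over the 6 arrays. Myh11, smooth muscle myosin, had 10.39, 9.43 and 10.19 in ascending aorta, against 10.42, 10.63 and 10.55 in descending aorta, with no overlap and a difference of -0.53 ± 0.23 (SE). Tagln, transgelin, differed by 0.17, and by 0.34 without ascending replicate 3, and Smtn, smoothelin, by -0.098.

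Over all 6 arrays the nerve genes showed no difference between the segments that passed the test. Of the 32 genes, 0 reached an adjusted p of 0.05 in limma, as did 0 of all 19938 genes (0%), and a per-gene test without moderated variance also called 0. Adjusted p-values of the 32 lay between 0.53 and 0.958. At an unadjusted p under 0.05 by limma, 4 of the 26 neuronal genes were lower in ascending aorta (Syt1, Ret, Gfra2 and Gfra3), against 5.33% of all genes. In the other direction Elavl4 and the glial gene Mbp were higher at that level, against 3.96% of all genes. The ascending arrays lay wholly below the descending arrays for 2 of 32 genes, Syt1 and Gfra2, against 8.95% of all genes, and wholly above for 1, Mbp, against 5.87%. The share of non-overlapping genes was thus near or under that of all genes.

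**Figure D1:**
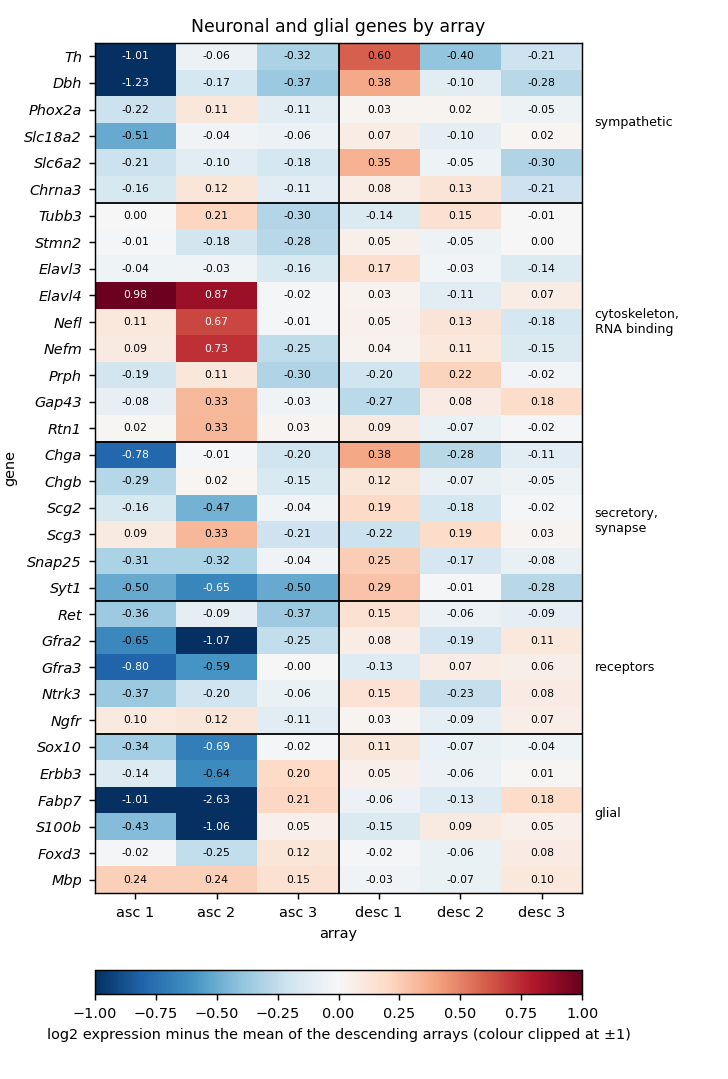
Log2 expression of the 32 genes on each array minus the gene's mean over the 3 descending arrays, with ascending arrays left of the line and descending arrays right of it; colours are clipped at ±1 and the numbers give the values. The lowest Th, Dbh and Chga values stand on ascending replicate 1 and the lowest Fabp7, S100b, Sox10 and Erbb3 values on ascending replicate 2.

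The median difference was -0.15 over the 26 neuronal genes and -0.27 over the 6 glial genes, against -0.021 over all genes. By their means 19 of 26 neuronal and 5 of 6 glial genes were lower in ascending aorta, against 56.2% of all genes. In this whole tissue, fewer cells of a type and less RNA per cell cannot be told apart. Without ascending replicate 3 the medians were -0.115 for neuronal and -0.45 for glial genes, and without ascending replicate 2 they were -0.169 and -0.075. In the fit without ascending replicate 3, 4 of the 32 genes passed by limma. Gfra2, Gfra3 and Fabp7 were lower, against 2.61% of all genes, and Elavl4 was higher, against 2.07%. The spread between arrays was larger in ascending than in descending aorta for 23 of the 32 genes, and the ascending arrays differed from each other in which genes were low.

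**Figure D2:**
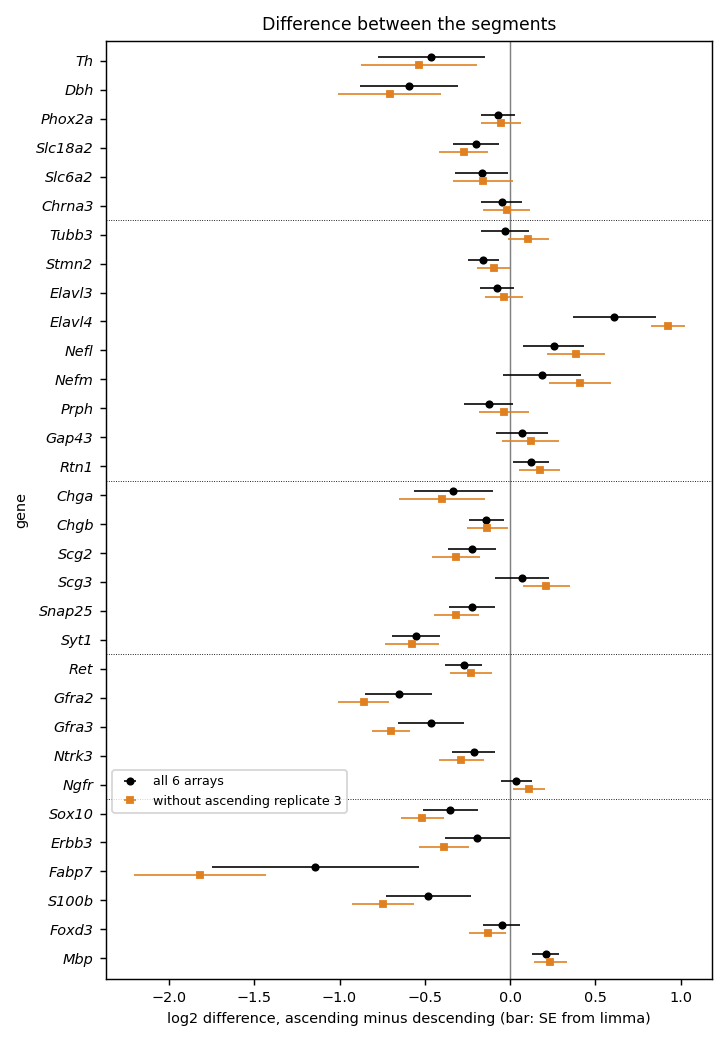
Log2 difference of each gene, ascending minus descending, with its SE from limma, for all 6 arrays (black circles) and without ascending replicate 3 (orange squares); dotted lines separate the roles. Fabp7 has the lowest value in both fits, at -1.14 and -1.82, and Elavl4 the highest, at 0.61 and 0.93.

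The 6 listed sympathetic genes all had lower means in ascending than in descending aorta (56.2% of all genes did), with no gene passing. Their differences were smaller without ascending replicate 1 or descending replicate 1. Of the further autonomic neuron genes given below, 10 of 19 had a higher mean. Th, tyrosine hydroxylase, the rate-limiting enzyme of catecholamine synthesis, had log2 expression of 6.94, 7.90 and 7.64 on ascending replicates 1 to 3, against 8.55, 7.56 and 7.75 on descending replicates 1 to 3. Dbh, dopamine β-hydroxylase, which turns dopamine into noradrenaline, had 6.55, 7.61 and 7.42 in ascending aorta, against 8.17, 7.68 and 7.51 in descending aorta. In both genes ascending replicate 1 was the lowest and descending replicate 1 the highest of the 6 arrays, and the groups overlapped. Th differed by -0.46 ± 0.31 (SE, n = 3 each, adjusted p = 0.645 by limma) and Dbh by -0.59 ± 0.29 (adjusted p = 0.552 by limma). Without descending replicate 1 the differences of Th and Dbh were -0.161 and -0.404, and without ascending replicate 1 they were -0.186 and -0.274.

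Slc18a2, the vesicular transporter that loads monoamines into vesicles, had 6.999, 7.47 and 7.45 in ascending aorta, against 7.58, 7.41 and 7.53 in descending aorta, and its difference of -0.20 ± 0.14 (SE) was -0.047 without ascending replicate 1. Chga, chromogranin A, a core protein of dense-core granules, had 7.43, 8.20 and 8.02 in ascending aorta, against 8.60, 7.94 and 8.11 in descending aorta. It differed by -0.33 ± 0.23 (SE, adjusted p = 0.654 by limma), and by -0.106 without ascending replicate 1. These genes thus ranked their end arrays in the same way as Th and Dbh. Of the 26 neuronal genes 6 had ascending replicate 1 lowest and descending replicate 1 highest (Th, Dbh, Slc18a2, Chga, Chgb and Ntrk3), or 23.1%, against 8.35% of all genes. Ascending replicate 1 was the lowest array for 8 of 26 neuronal genes, against 17.7% of all genes, and for 0 of 6 glial genes. The array pattern was noticed in these values, and these counts describe it without a test. The pattern was not particular to neuronal genes, since 3 of 5 endothelial genes also had it.

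The other 3 sympathetic genes had smaller differences. Phox2a, a homeodomain factor that specifies noradrenergic neurons, averaged 7.05 ± 0.17 in ascending and 7.12 ± 0.045 in descending aorta (SD, n = 3 each). Slc6a2, the noradrenaline reuptake transporter, averaged 6.36 ± 0.056 in ascending and 6.53 ± 0.325 in descending aorta, where descending replicate 1 was the highest array at 6.87. Chrna3, the nicotinic receptor subunit of autonomic ganglia, averaged 6.65 ± 0.15 in ascending and 6.695 ± 0.18 in descending aorta. The differences of these 3 genes lay between -0.17 and -0.05, and each changed sign when a single array was left out.

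The promoters of the noradrenergic and granule genes that shared the array pattern are shown because these genes were low and high on the same arrays. Windows were taken from RefSeq on GRCm38.p6 and cover the 250 bases before the annotated start, 5′ to 3′ on the strand of the gene; 1 was found for 5 of the 6 genes. Capitals mark TGACGT, the core of the cyclic AMP response element that CREB-family factors bind, and the full element TGACGTCA that contains it, both searched on both strands. Th lies at chr7:142899996-142900245, minus strand. Dbh lies at chr2:27165257-27165506, plus strand. Slc18a2 lies at chr19:59260628-59260877, plus strand. Chga lies at chr12:102554691-102554940, plus strand. Chgb lies at chr2:132781392-132781641, plus strand.
Th: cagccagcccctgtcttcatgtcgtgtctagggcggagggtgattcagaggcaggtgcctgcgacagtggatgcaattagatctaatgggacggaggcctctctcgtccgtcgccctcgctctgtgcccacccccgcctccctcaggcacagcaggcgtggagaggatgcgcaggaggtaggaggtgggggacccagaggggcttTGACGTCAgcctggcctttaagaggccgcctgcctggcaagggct
Dbh: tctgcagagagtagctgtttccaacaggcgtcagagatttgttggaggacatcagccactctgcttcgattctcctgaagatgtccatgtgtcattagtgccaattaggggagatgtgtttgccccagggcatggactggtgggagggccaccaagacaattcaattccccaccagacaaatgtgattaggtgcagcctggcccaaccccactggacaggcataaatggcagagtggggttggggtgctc
Slc18a2: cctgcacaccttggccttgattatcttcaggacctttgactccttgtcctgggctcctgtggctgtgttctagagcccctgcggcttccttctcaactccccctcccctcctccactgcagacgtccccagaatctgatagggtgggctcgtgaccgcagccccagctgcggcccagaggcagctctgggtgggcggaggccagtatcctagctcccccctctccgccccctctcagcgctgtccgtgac
Chga: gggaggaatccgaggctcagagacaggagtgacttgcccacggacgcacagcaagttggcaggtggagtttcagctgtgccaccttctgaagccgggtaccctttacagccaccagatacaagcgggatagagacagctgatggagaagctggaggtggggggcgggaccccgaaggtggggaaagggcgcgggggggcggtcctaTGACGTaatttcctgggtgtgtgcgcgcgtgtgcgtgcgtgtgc
Chgb: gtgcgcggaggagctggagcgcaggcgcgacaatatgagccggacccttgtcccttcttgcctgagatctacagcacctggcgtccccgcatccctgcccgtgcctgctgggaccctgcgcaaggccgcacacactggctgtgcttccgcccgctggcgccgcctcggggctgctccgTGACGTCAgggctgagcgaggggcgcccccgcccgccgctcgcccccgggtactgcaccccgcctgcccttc
The full element began 45 bases before the start in Th and 72 bases before it in Chgb, and the core alone began 44 bases before the start in Chga. Neither was found in the windows of Dbh and Slc18a2. Of all 32851 promoter windows, 1.55% held the full element and 6.47% the core. Of the 19 listed nerve genes with a window, 4 held the full element (Th, Chgb, Scg2 and the glial gene Foxd3) and 6 the core, which Chga and Elavl4 held as well. The shares are of windows, while a nerve gene counted once if any window of it matched, so the units differ. A match describes letters, not a bound site, and genes with and without it shared the array pattern.

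**Figure D3:**
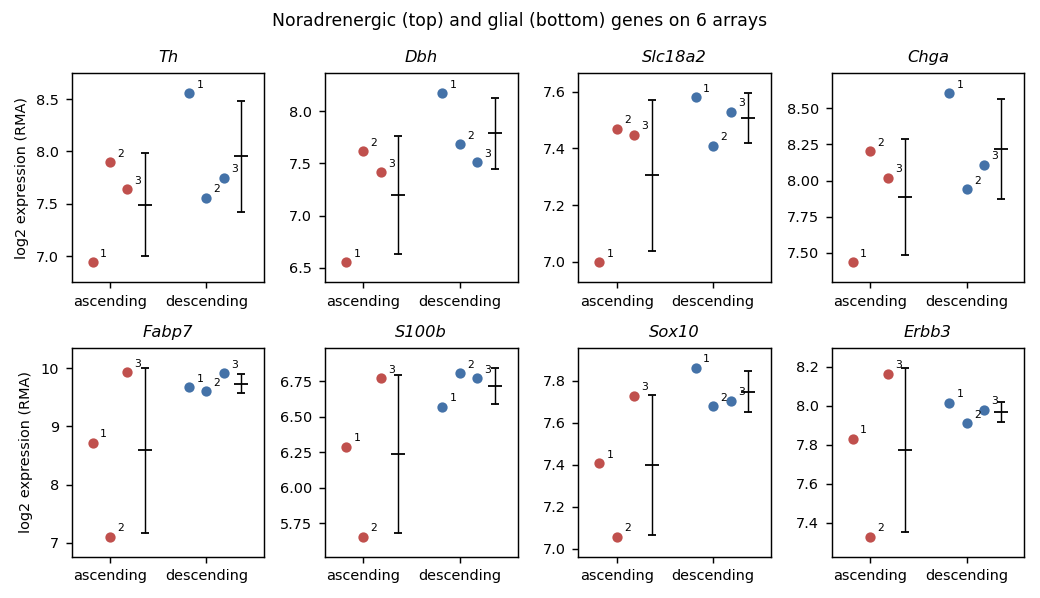
Log2 expression on each array for 4 noradrenergic and granule genes (top) and 4 glial genes (bottom); numbers beside the points are replicates, bars show the mean ± SD of 3 arrays, and each panel has its own scale. Ascending replicate 1 is the lowest array in the top row and ascending replicate 2 in the bottom row.

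The general neuronal genes of the cytoskeleton, axon and RNA binding did not follow the noradrenergic genes. Of 9 genes 5 had a higher mean in ascending aorta, and the median difference was 0.070. Elavl4 encodes HuD, a neuronal protein that stabilises mRNAs. It had 6.92, 6.81 and 5.92 in ascending aorta, against 5.97, 5.83 and 6.01 in descending aorta. Ascending replicates 1 and 2 stood clearly above all descending arrays, and ascending replicate 3 lay among them. The difference was 0.61 ± 0.24 (SE, adjusted p = 0.531 by limma) over all arrays. Without ascending replicate 3 it was 0.93 ± 0.10 (SE), a 1.90-fold higher level (adjusted p = 0.00243 by limma).

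Nefl and Nefm, the light and medium neurofilament subunits, were highest on ascending replicate 2. Nefl had 8.49, 9.04 and 8.37 in ascending aorta, against 8.43, 8.51 and 8.20 in descending aorta. Nefm had 7.19, 7.84 and 6.85 in ascending aorta, against 7.14, 7.21 and 6.96 in descending aorta. Their differences of 0.26 ± 0.18 and 0.19 ± 0.23 (SE) did not pass, and without ascending replicate 2 they were 0.050 and -0.084. Gap43, a growth cone protein, Rtn1, a reticulon of neuroendocrine cells, and Tubb3, the neuronal β-tubulin, were also highest on that array, which made 5 of 9 genes of this role, against 20.9% of all genes.

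The remaining genes of this role differed less. Stmn2, a microtubule regulator of growing axons, averaged 10.29 ± 0.135 in ascending and 10.445 ± 0.053 in descending aorta (SD, n = 3 each). Prph, peripherin, the intermediate filament of peripheral neurons, averaged 7.785 ± 0.215 in ascending and 7.91 ± 0.21 in descending aorta. Elavl3, another neuronal RNA-binding protein, differed by -0.08, Gap43 by 0.07, Rtn1 by 0.12 and Tubb3 by -0.03, which was 0.024 after repeated quantile normalization. Ascending replicate 3 was the lowest array for 7 of the 26 neuronal genes, among them Tubb3, Stmn2, Elavl3, Nefm and Prph, against 17.4% of all genes.

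Among the genes of granules and synapses the lowest difference was that of Syt1, synaptotagmin 1, the calcium sensor of vesicle release. Syt1 had 9.08, 8.93 and 9.08 in ascending aorta, against 9.87, 9.57 and 9.31 in descending aorta. All ascending arrays, replicate 3 included, lay below all descending arrays. It averaged 9.03 ± 0.09 in ascending and 9.58 ± 0.28 in descending aorta (SD, n = 3 each), a difference of -0.55 ± 0.14 (SE, adjusted p = 0.53 by limma). Leaving out each array in turn gave -0.689 to -0.406.

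Snap25, a SNARE protein of vesicle fusion, averaged 7.45 ± 0.16 in ascending and 7.67 ± 0.22 in descending aorta. Scg2, secretogranin II, averaged 6.39 ± 0.225 in ascending and 6.62 ± 0.185 in descending aorta. Chgb, chromogranin B, averaged 7.101 ± 0.15 in ascending and 7.24 ± 0.10 in descending aorta. These 3 had lower means in ascending aorta, with descending replicate 1 highest in each. Scg3, secretogranin III, differed by 0.07 and was the only one of the 32 genes under the 25th percentile of mean expression.

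The receptors for neurotrophic factors held 3 of the 4 neuronal genes that were lower at an unadjusted p under 0.05. Gfra2, the co-receptor for neurturin, had 8.24, 7.81 and 8.64 in ascending aorta, against 8.96, 8.70 and 8.99 in descending aorta. Gfra3, the co-receptor for artemin, had 7.75, 7.96 and 8.55 in ascending aorta, against 8.42, 8.62 and 8.61 in descending aorta. For Gfra2 the ascending arrays lay below all descending arrays, while for Gfra3 ascending replicate 3 lay among them. The differences were -0.65 ± 0.20 and -0.47 ± 0.19 (SE, adjusted p = 0.53 and 0.534 by limma). Without ascending replicate 3 they were -0.86 ± 0.15 and -0.70 ± 0.11 (adjusted p = 0.019 and 0.0129 by limma), or 1.81-fold and 1.62-fold lower levels.

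Ret, the kinase that both co-receptors signal through, had 7.07, 7.35 and 7.07 in ascending aorta, against 7.59, 7.38 and 7.34 in descending aorta. It differed by -0.27 ± 0.11 (SE, adjusted p = 0.534 by limma), with ascending replicate 2 just above descending replicate 3. Gfra1, the co-receptor for GDNF named after its values were seen, had 11.31, 11.34 and 11.07 in ascending aorta, against 11.22, 11.06 and 11.00 in descending aorta, a difference of 0.14 ± 0.10 (SE). Whether Gfra1 differed from Gfra2 and Gfra3 in its change was not tested. Ntrk3, the neurotrophin 3 receptor TrkC, averaged 9.79 ± 0.15 in ascending and 10.01 ± 0.20 in descending aorta. Ngfr, the p75 receptor of neurons, glia and crest cells, averaged 9.43 ± 0.13 in ascending and 9.39 ± 0.085 in descending aorta and lay between 9.28 and 9.51 on all arrays.

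Of 8 measured ligands for these and related receptors, 0 passed over all 6 arrays and 3 had a higher mean in ascending aorta. The ligands of the Ret co-receptors were named after their values were seen: Gdnf differed by -0.042 ± 0.094, Nrtn, neurturin, by -0.061 ± 0.075 and Artn, artemin, by -0.13 ± 0.075 (SE). Bdnf, a neurotrophin, differed by 0.28 ± 0.13 and Nrg1, the neuregulin that binds ErbB3, by 0.24 ± 0.125 (SE). Without ascending replicate 3, 2 ligand genes passed, both lower in ascending aorta, where 2.61% of all genes were. Edn3, endothelin 3, which acts on crest cells and enteric and glial precursors, had 7.55, 7.21 and 8.98 in ascending aorta, against 9.39, 8.91 and 8.91 in descending aorta. Its difference was -1.16 ± 0.42 over all arrays and -1.69 ± 0.17 without that array (SE, adjusted p = 0.00195 by limma). Sema3a, a repellent of sympathetic axons, differed by -0.65 ± 0.27 and by -0.97 ± 0.16 (SE, adjusted p = 0.015 by limma).

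**Figure D4:**
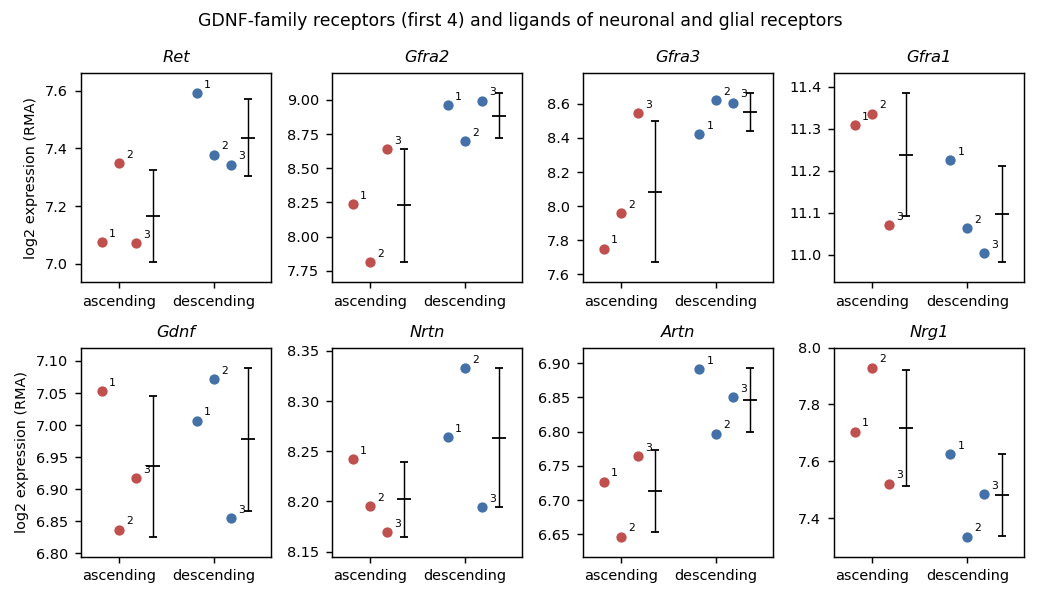
Log2 expression on each array for Ret and 3 GFRα co-receptors (top) and for 4 ligands (bottom); numbers are replicates, bars the mean ± SD of 3 arrays, and each panel has its own scale. Gfra2 is lower on the 3 ascending arrays than on any descending array, while the Gdnf and Nrtn arrays overlap.

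For 4 of the 6 glial genes ascending replicates 1 and 2 lay below all descending arrays, against 18.9% of all genes, while ascending replicate 3 did not. In these 4 genes ascending replicate 2 was the lowest array, unlike in Th and Dbh. Fabp7, the brain-type fatty acid-binding protein of radial glia and Schwann cell precursors, had 8.72, 7.11 and 9.94 in ascending aorta, against 9.67, 9.61 and 9.92 in descending aorta. S100b, a calcium-binding protein of glia, had 6.29, 5.66 and 6.77 in ascending aorta, against 6.57, 6.81 and 6.77 in descending aorta. In both genes ascending replicate 2 was lowest, ascending replicate 1 next, and ascending replicate 3 within or above the descending range. Fabp7 differed by -1.14 ± 0.61 (SE, adjusted p = 0.573 by limma), a 2.21-fold lower level, and by -1.82 ± 0.39 without ascending replicate 3 (adjusted p = 0.04 by limma), a 3.52-fold lower level. Without ascending replicate 2 its difference was -0.402. S100b differed by -0.48 ± 0.25 over all arrays and by -0.74 ± 0.18 without ascending replicate 3 (SE, adjusted p = 0.0609 by limma), but by -0.188 without ascending replicate 2.

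Sox10, the transcription factor that specifies peripheral glia, had 7.41, 7.06 and 7.73 in ascending aorta, against 7.86, 7.68 and 7.71 in descending aorta. Erbb3, the neuregulin receptor, had 7.83, 7.33 and 8.16 in ascending aorta, against 8.02, 7.91 and 7.98 in descending aorta. Both shared the low end of Fabp7, with ascending replicate 2 lowest and ascending replicate 1 next. Ascending replicate 3 was the highest array for Erbb3, as for Fabp7, but descending replicate 1 was the highest for Sox10. Their differences were -0.35 ± 0.16 and -0.19 ± 0.19 (SE), and without ascending replicate 2 they were -0.18 and 0.029. They were -0.52 ± 0.13 and -0.39 ± 0.15 without ascending replicate 3 (SE, adjusted p = 0.0658 and 0.218 by limma). Foxd3, a factor of crest cells and glial precursors, had 7.59, 7.37 and 7.73 in ascending aorta, against 7.60, 7.55 and 7.70 in descending aorta.

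Mbp, myelin basic protein, made by mature myelinating glia, was the exception. It had 7.78, 7.78 and 7.69 in ascending aorta, against 7.51, 7.47 and 7.65 in descending aorta. All ascending arrays lay above all descending arrays, and the difference was 0.21 ± 0.08 (SE, adjusted p = 0.53 by limma). Ascending replicate 2 was the lowest of the 6 arrays for the other 5 glial genes, against 24.4% of all genes. Ascending replicates 1 and 2 both lay below all descending arrays for 4 glial genes (Sox10, Erbb3, Fabp7 and S100b) and 4 neuronal genes (Snap25, Syt1, Gfra2 and Gfra3), against 18.9% of all genes. They both lay above all descending arrays for Mbp, Elavl4 and Ngfr, against 15.6% of all genes. The shares were 66.7% of glial and 15.4% of neuronal genes on the low side.

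The promoter window of Fabp7, the glial gene with the largest difference, is shown for comparison with the noradrenergic promoters. It lies at chr10:57784673-57784922, plus strand. Capitals mark the match to ACAAT, a core that Sox factors bind, here on the opposite strand and so read as ATTGT, beginning 198 bases before the start.
Fabp7: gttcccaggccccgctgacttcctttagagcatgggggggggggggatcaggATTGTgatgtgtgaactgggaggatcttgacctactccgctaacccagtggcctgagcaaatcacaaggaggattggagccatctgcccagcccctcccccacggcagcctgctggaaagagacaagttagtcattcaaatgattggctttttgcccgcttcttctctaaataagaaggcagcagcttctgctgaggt
ACAAT was held by 27.7% of all promoter windows and by 9 of the 19 nerve genes with a window, again counted by window and by gene. Fabp7 was the only glial gene among these holders. The glial gene Foxd3 had a window without ACAAT, and listed genes without a window could not be searched. Dbh and Chgb, whose windows are printed above without this mark, held ACAAT as well, so it did not set Fabp7 apart from them. The cyclic AMP response core was not found in the Fabp7 window.

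Set side by side, neuronal and glial genes had their lowest medians on different ascending arrays, and both were low on ascending replicate 1. Relative to the descending mean, the 26 neuronal genes had medians of -0.200, -0.023 and -0.154 on ascending replicates 1 to 3, against 0.078, -0.056 and -0.036 on descending replicates 1 to 3. The 6 sympathetic genes among them had medians of -0.362, -0.047 and -0.144 on ascending replicates 1 to 3, against 0.212, -0.073 and -0.206 on descending replicates 1 to 3. The glial genes had -0.239, -0.666 and 0.134 on the ascending arrays, against -0.026, -0.067 and 0.069 on the descending arrays. The neuronal and sympathetic medians were thus lowest on ascending replicate 1 and near the descending level on replicate 2, where the glial median was lowest. Single neuronal genes did not all follow, since 4 of 26 were lowest on ascending replicate 2 and 7 on replicate 3. The genes of cytoskeleton and RNA binding had their highest median, 0.327, on ascending replicate 2, and the receptors had -0.372, -0.200 and -0.110 on the ascending arrays. Over all arrays the neuronal median difference exceeded the glial one by 0.123, and without ascending replicate 2 this excess was -0.093. The spread of this quantity between arrays, pooled over both segments, was larger (SD 0.342). The glial medians that enter it spread far more over the ascending than over the descending arrays, so the pooled SD does not describe each segment.

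**Figure D5:**
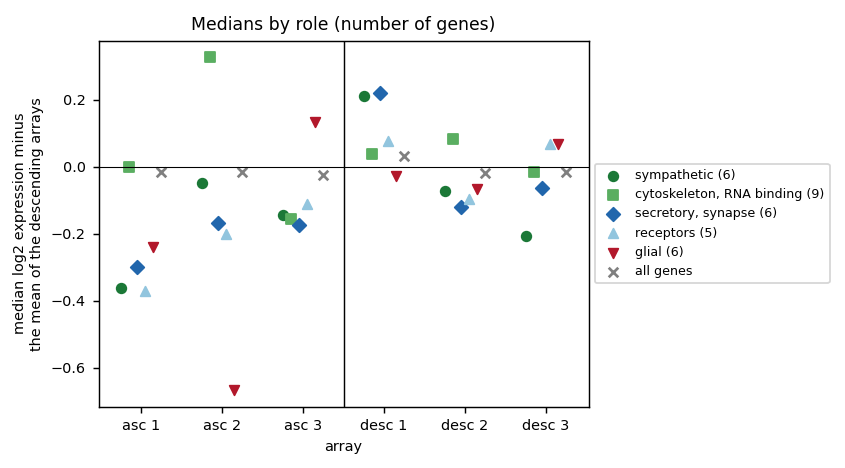
Median over the genes of each role of log2 expression minus the gene's descending mean, per array, with all genes as crosses. The glial median is lowest on ascending replicate 2 (-0.666) and the sympathetic median on ascending replicate 1 (-0.362).

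Further genes of the 2 lineages were read from lists chosen together with the members. Of 13 further Schwann lineage genes 11 had a lower mean in ascending aorta, against 56.2% of all genes, and 0 passed over all arrays. Cdh19, a cadherin of Schwann cell precursors, had 4.43, 4.58 and 5.11 in ascending aorta, against 5.63, 5.44 and 5.43 in descending aorta, with no overlap. Its mean expression lay under the 25th percentile of all genes. Its difference was -0.79 ± 0.17 (SE, adjusted p = 0.53 by limma) and -0.996 ± 0.106 without ascending replicate 3 (adjusted p = 0.00229 by limma). Ednrb, the endothelin receptor of crest cells and their glial derivatives, which endothelial cells also carry, differed by -0.64 ± 0.29 and by -0.99 ± 0.17 without that array (SE, adjusted p = 0.0163 by limma). Sox2, which keeps glial precursors immature, differed by -0.20 and Pmp22, a myelin protein also made by mesenchyme, by -0.18. Cdh19 and Ednrb were the 2 genes of this list that passed without ascending replicate 3, both lower (2.61% of all genes).

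Of 19 further autonomic neuron genes 10 had a higher and 9 a lower mean in ascending aorta, and 0 passed over all arrays. Ascending replicates 1 and 2 lay above all descending arrays for 7 of the 19, against 15.6% of all genes. They lay below all descending arrays for 3, against 18.9%. Without ascending replicate 3, Hand2 and Isl1 were higher (2.07% of all genes) and Map2 and Dcx lower (2.61%). Hand2, a factor of sympathetic neurons that heart and outflow tract also express, had 10.01, 10.71 and 8.58 in ascending aorta, against 8.66, 8.44 and 8.49 in descending aorta. Dcx, doublecortin of migrating young neurons, had 6.91, 6.40 and 7.74 in ascending aorta, against 8.01, 7.70 and 7.82 in descending aorta. Their differences were 1.24 and -0.82 over all arrays (adjusted p = 0.53 each by limma), and without ascending replicate 3 they were 1.83 ± 0.19 and -1.18 ± 0.16 (SE, adjusted p = 0.00205 and 0.00723 by limma). Isl1, another factor shared by autonomic neurons and the second heart field and named after its values were seen, differed by 0.91 over all arrays (adjusted p = 0.569 by limma) and by 1.45 without ascending replicate 3. Map2, a dendritic microtubule protein, differed by -0.42 (adjusted p = 0.53 by limma) and by -0.59 without it. Uchl1, a neuronal deubiquitinase, differed by 0.39 over all arrays, with no overlap. Also named after their values were seen, Gata3, Ddc, Gata2 and Chrnb4 differed by 0.40, 0.22, 0.099 and 0.089. Insm1 and Npy, named in the same way, differed by -0.061 and -0.019.

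Of 4 cholinergic genes 0 passed over all arrays. Slc5a7, the choline transporter, had 7.35, 7.88 and 5.96 in ascending aorta, against 6.37, 5.91 and 5.76 in descending aorta, a difference of 1.05 (adjusted p = 0.534 by limma). It was 1.61 without ascending replicate 3 (adjusted p = 0.00579 by limma). Chat, which makes acetylcholine, Slc18a3, its vesicular transporter, and Vip, a peptide of cholinergic neurons, differed by -0.096, -0.012 and -0.12. Slc5a7 therefore stood apart from the other 3 on ascending replicates 1 and 2.

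Genes of other cells stood apart on the same ascending arrays. The summed linear intensity of 5 mesothelial genes was 8333, 9075 and 2823 in ascending aorta, against 2232, 2266 and 2680 in descending aorta, and that of 5 cardiac muscle genes was 3211, 4823 and 2054, against 1720, 1555 and 2105. Both sums were high on ascending replicates 1 and 2, the arrays on which Elavl4, Hand2, Isl1 and Slc5a7 were high. On both of these arrays 4 of the 5 cardiac genes lay above all descending arrays, against 15.6% of all genes. Tnnt2 was the brightest of the 5 there, with 10.775 and 11.49, and so weighed most in the cardiac sum. Myl7 was highest on ascending replicate 3, at 9.93. Of the 5 endothelial genes all 5 had a lower mean in ascending aorta, and the sum was 8632, 9585 and 14220, against 16540, 14270 and 15590 in descending aorta. The low endothelial arrays were those on which Fabp7, S100b, Gfra2 and Gfra3 were low. The endothelial sum was lowest on ascending replicate 1 and highest on descending replicate 1, the end arrays of Th and Dbh. Pecam1, Cdh5 and Kdr had these same end arrays, or 3 of 5 endothelial genes, against 8.35% of all genes. By their means 5 of 5 mesothelial and 5 of 5 cardiac genes were higher. None of the 3 lists had a gene that passed over all 6 arrays. In the limma fit without ascending replicate 3, 4 mesothelial genes (Upk3b, Upk1b, Msln and Krt19) and 1 cardiac gene passed as higher (2.07% of all genes). In the same fit 3 endothelial genes (Cdh5, Kdr and Emcn) passed as lower (2.61%). Wt1 and Pecam1 did not pass in it (adjusted p = 0.0569 and 0.276 by limma). Msln differed by 0.98 over all arrays and by 1.57 without ascending replicate 3. Over all arrays the mesothelial genes Upk3b, Upk1b, Krt19 and Wt1 differed by 1.64, 1.94, 1.13 and 0.38, and without ascending replicate 3 by 2.255, 2.70, 1.72 and 0.54. The cardiac genes Tnnt2, Nppa, Myl7 and Myh7 differed by 1.47, 0.20, 0.44 and 0.30 over all arrays, and Tnnt2, the 1 that passed, by 2.23 without that array. The endothelial genes Kdr, Cdh5, Emcn and Pecam1 differed by -0.77, -0.43, -1.685 and -0.18 over all arrays, and without it by -1.07, -0.59, -2.48 and -0.23. The part of these cells in the nerve gene values was not tested.

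Markers of other neural and crest-derived cells showed smaller median differences, between -0.069 and 0.014. Of 6 melanoblast genes, cells that share Sox10 and Erbb3 with glia, 3 had a lower mean, and their summed intensity ranged from 422.4 to 471.5 in ascending aorta, against 465.2 to 486.4 in descending aorta. Mitf, the melanocyte master regulator, differed by -0.22 with no overlap, Pmel by -0.15, Mlana by -0.10 and Tyr by 0.052. Of 5 genes of the central nervous system 3 had a lower mean, with sums of 524.6 to 577.1 in ascending aorta, against 544 to 577.5 in descending aorta. Neurod1, Pax6, Sox1 and Olig2 differed by -0.14, -0.083, -0.047 and 0.035. Of 6 sensory neuron genes 5 had a lower mean and 0 passed over all arrays, and their summed intensity ranged from 1335 to 1563 in ascending aorta, against 1446 to 1658 in descending aorta. Ntrk2, the BDNF receptor TrkB, had 9.44, 9.34 and 9.44 in ascending aorta, against 9.74, 9.64 and 9.72 in descending aorta, and differed by -0.29 with no overlap (adjusted p = 0.53 by limma, and 0.123 without ascending replicate 3). Isl2, a factor of sensory and motor neurons, was higher on all ascending arrays, by 0.66 (adjusted p = 0.53 by limma). It passed without ascending replicate 3, with a difference of 0.95 (adjusted p = 0.0016 by limma). Scn10a, a sodium channel, and Avil, advillin, differed by -0.24 and -0.11. The 2 chromaffin genes, Pnmt and Cartpt, differed by 0.105 and -0.076. No detection calls accompany the table, so whether a low value lies above background is not known here.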

How the data were processed

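Total RNA from 6 samples, 3 per aortic segment, was taken up in Trizol, and biotin-labelled cRNA made from it went onto Affymetrix arrays, per the labels' protocols. The deposited values are log2 expression per probe set after RMA. Per the submitters' processing notes the software list holds RMA and Partek 6.6, without saying which step used which or with what settings. RMA makes array distributions alike, which hides a shift common to most genes, and it shrinks differences of dim genes. The genome build of the arrays is not given in the sources used here. No 2 arrays held identical values.

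Of 35556 probe sets 21789 had 1 gene symbol in the platform annotation, 1621 several and 12146 none. The Entrez number matched RefSeq (GRCm38.p6) for 21698, and 0 symbols changed. The probe set with the highest mean was kept per gene, which left 19938 genes, with no filter on dim genes. Segments were compared with limma 3.58.1 (lmFit and eBayes, R 4.3.3) on all 6 arrays, with two-sided p-values adjusted across the 19938 genes by Benjamini and Hochberg's method and called at 0.05. With 3 arrays a segment, the smallest p that an exact permutation test can give is 0.1. Lists are described by counts and medians without a set test. The script was tested on simulated data. Promoters came from RefSeq windows, and tables and plots used Python 3.11.15, pandas 2.3.3 and matplotlib 3.10.9.

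The members and lists were chosen with earlier results of these data known. Values on every array are given for genes with an unadjusted p under 0.05, no overlap, a call without some array, 1 of the 10 largest differences or a glial role, and for Slc18a2, Nefl and Nefm, added after their values were seen. Of each further list up to 4 genes with the smallest p are named, with some others added after their values were seen. Some list members were not analysed here. Alternatives were repeated quantile normalization, median-centring, filters at the 25th and 50th percentile, the mean of a gene's probe sets, every probe set tested, robust estimation with a trended variance, plain per-gene variances, weights per array, a block for replicate number and leaving out arrays.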

Additional observations from a re-analysis of the deposited data

How the results depend on the processing

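The number of arrays limits every value. Over all genes 0 passed in each of the 10 settings that kept all 6 arrays, and leaving out each array in turn gave 0 to 933 genes and 0 to 4 of the 32 nerve genes, the calls all coming without ascending replicate 3. Without ascending replicate 3 and descending replicate 1, 469 genes passed, and 2 of the 32, Elavl4 and Gfra3. Leaving out each array in turn gave medians of -0.18 to -0.095 for neuronal genes, -0.452 to -0.075 for glial genes and -0.093 to 0.337 for their difference. Above the 50th percentile Fabp7 was the only glial gene left, so the glial median was -1.143 and the neuronal median exceeded it by 0.958. Of 298 single-gene values in the 10 settings, 2 changed sign: Tubb3 was 0.024 after repeated quantile normalization and Gap43 was -0.063 with array weights. Leaving out 1 array turned the sign of 11 genes with small differences: the ranges were -0.163 to 0.002 for Phox2a, -0.153 to 0.016 for Chrna3, -0.314 to 0.008 for Slc6a2, -0.148 to 0.107 for Tubb3, -0.145 to 0.005 for Elavl3, -0.084 to 0.411 for Nefm, -0.064 to 0.162 for Gap43, -0.06 to 0.212 for Scg3, -0.011 to 0.11 for Ngfr, -0.388 to 0.029 for Erbb3 and -0.132 to 0.05 for Foxd3. With both arrays left out, Slc6a2 was 0.015, Chrna3 0.019, Tubb3 0.037, Elavl3 0.045, Gap43 -0.012, Nefm 0.429, Ngfr 0.125 and Foxd3 -0.142. The cause of these changes was not tested.

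The replicate number as a block called 0 genes and left the medians at -0.149 and -0.272. Deviations of same-numbered arrays correlated at -0.08, -0.05 and 0.02 across genes, and by these deviations none of the ascending arrays correlated best with the descending array of its own number, so the number was not taken to pair the samples.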
